A study of Mus musculus with 5 samples.

Results

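The BAF complexes, mammalian relatives of the yeast SWI/SNF complex, use the energy of ATP to slide or evict nucleosomes. Each complex holds 1 ATPase, the product of Smarca4 (BRG1) or Smarca2 (BRM), and a set of further subunits, several of which are drawn from families of paralogues. Which paralogue is built in differs between cell types, and mouse embryonic stem cells are known for an assembly, called esBAF, that carries BRG1, BAF155 and BAF60a and is poor in BRM and BAF170. Engaged RNA polymerase over the genes of this complex was measured here. The 10 genes were taken by their gene symbols in the mm9 annotation, out of 22885 gene models of at least 2000 bp: Smarca4, Smarca2, Smarcc1, Smarcc2, Smarcd1, Smarcd3, Arid1a, Arid1b, Actl6a and Smarce1. All 10 were found, and none shared its counted part with another gene on the same strand.

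The series compared V6.5 mouse embryonic stem cells (MESC) with mouse embryonic fibroblasts (MEF) by global run-on sequencing. Engaged polymerases in nuclei extend their RNA with Br-UTP, and an antibody pulls down the tagged RNA, which is cut to short pieces and read. Both kinds of cell came from the same strain cross, C57Bl/6(f) x 129/Sv(m). The stem cells, 3 samples at passages 12 to 14, had LIF in their medium and an irradiated feeder layer. The fibroblasts, 2 samples at passage 2, came from male mid-gestation embryos and had no LIF and less serum. The authors' files pool the samples of each cell type, so each value below comes from 1 pooled library, with no spread between samples and no p-value. Bracketed ranges are exact 95% intervals of counting error alone. They take each read as a separate molecule, which reads without a molecular identifier cannot show, so the ranges may be too narrow. In cultures measured in bulk, fewer cells of a type and less RNA per cell cannot be told apart. The V6.5 line is a single cell line, and feeder cells of the cultures could add reads to the stem cell library.

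There were 8616592 reads for MESC and 6583644 for MEF. The labels fitted their markers: the summed body density of 6 stem cell markers was 42.8 in MESC and 0.180 in MEF, with 3 of them at 0 reads in MEF, and that of 6 fibroblast markers was 1.79 in MESC and 96.6 in MEF, with none at 0. Density means sense reads of the gene body in RPKM, that is per kb and relative to all reads but the mitochondrial ones, with the body counted from 1000 bp after the annotated start to the annotated end. The median of all 9488 bodies with at least 50 reads in 1 library lay at log2 0.30 toward MESC, and it moved to 0.03 under TMM factors, so single ratios are also read against 0.30. Of all bodies called at 2-fold, 62.2% were denser in MESC, and 47.9% were under TMM factors. Ratios between paralogues within a library do not depend on this scaling.

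In each of the 4 paralogue pairs, the polymerase density was tilted further toward Smarca4, Smarcc1, Smarcd1 and Arid1a in MESC than in MEF. The ratio of the first to the second paralogue was 2.67-fold higher in MESC for the ATPases (2.15 to 3.32), 2.50-fold for Smarcc1 over Smarcc2 (2.10 to 2.98), 22.3-fold for Smarcd1 over Smarcd3 (8.61 to 72.8) and 2.27-fold for Arid1a over Arid1b (2.07 to 2.48). All 4 intervals lay above 1, but that of the Smarcd pair rests on Smarcd3, which held 5 body reads in MESC and passed the minimum of 50 through MEF alone. For the Smarcc pair the order itself turned, with Smarcc1 the denser gene in MESC and Smarcc2 in MEF. The pairs were proposed with results of these data in view, and their shared direction was not tested.

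**Figure D1:**
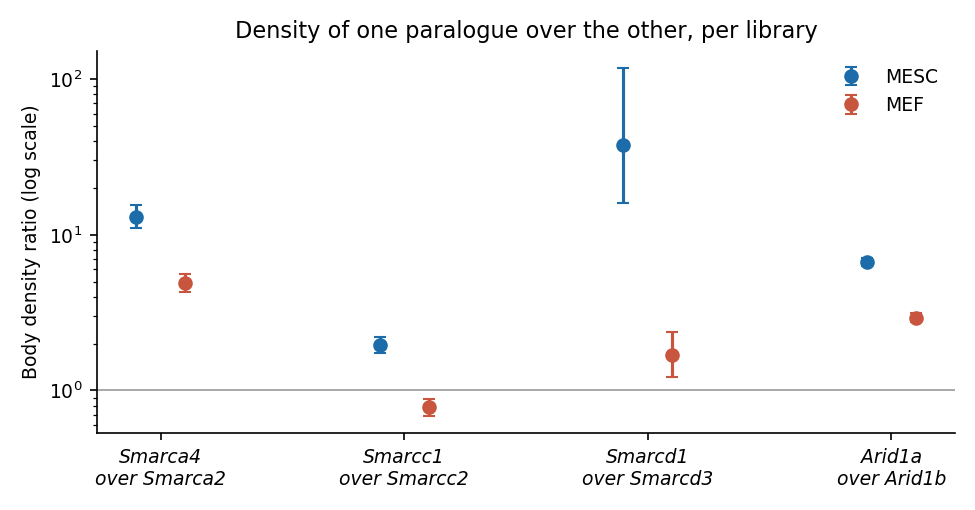
Body density of the first paralogue over the second (log scale) in MESC and MEF, for the 4 pairs; bars are exact 95% intervals of counting error, and the grey line marks equal density. Each ratio was higher in MESC, and only the Smarcc pair crossed the line, from 1.95 in MESC to 0.778 in MEF.

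The ATPase genes came first. Smarca4 (chromosome 9, 21420613 to 21508674, plus strand) encodes BRG1, the ATPase that stem cells need. Its body of 87.1 kb held 1032 reads in MESC and 808 in MEF, a density of 1.38 (1.30 to 1.47) and 1.41 (1.32 to 1.51). The ratio of MESC to MEF was 0.979 (0.892 to 1.07), so the 2 libraries could not be told apart at this gene by total scaling. Smarca2 (chromosome 19, 26679650 to 26852811, plus strand) encodes BRM, the alternative ATPase. Its body of 172 kb held 156 reads in MESC and 326 in MEF, a density of 0.106 (0.0898 to 0.124) and 0.288 (0.258 to 0.321). Smarca2 was 2.73-fold denser in MEF (2.25 to 3.32), and its ratio lay below that of all but 8.62% of the bodies tested. Smarca4 took 92.9% (91.7 to 94.0) of the summed density of both genes in MESC and 83.1% (81.2 to 84.8) in MEF. Between the libraries Smarca2 differed beyond counting error, while the log2 ratio of Smarca4 ranged from -0.33 to 0.02 over all alternatives. The summed density of the pair was 1.49 in MESC and 1.70 in MEF.

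The core scaffold genes differed in opposite directions. Smarcc1 (chromosome 9, 110034541 to 110142682, plus strand) encodes BAF155, and Smarcc2 (chromosome 10, 127896292 to 127927229, plus strand) encodes BAF170, proteins that dimerise in the base of the complex. Smarcc1 held 2187 body reads in MESC and 974 in MEF, a density of 2.38 (2.28 to 2.48) and 1.38 (1.30 to 1.47). It was 1.72-fold denser in MESC (1.60 to 1.86). Smarcc2 held 314 body reads in MESC and 350 in MEF, a density of 1.22 (1.09 to 1.37) and 1.78 (1.60 to 1.98), and was 1.45-fold denser in MEF (1.25 to 1.70). Within MESC, Smarcc1 was 1.95-fold denser than Smarcc2 (1.73 to 2.20). Within MEF, Smarcc2 was 1.29-fold denser than Smarcc1 (1.14 to 1.46). Both differences from the other library were below 2-fold, while the summed density of the pair was nearly level, 3.61 in MESC and 3.16 in MEF.

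The BAF60 genes held the widest difference. Smarcd1 (chromosome 15, 99532718 to 99544426, plus strand) encodes BAF60a, and Smarcd3 (chromosome 5, 24096636 to 24107830, minus strand) encodes BAF60c, known from heart and skeletal muscle. Smarcd1 held 199 body reads in MESC and 107 in MEF, a density of 2.17 (1.88 to 2.49) and 1.52 (1.25 to 1.84), and was 1.43-fold denser in MESC (1.12 to 1.82). That interval held the median of all bodies. Smarcd3 held 5 body reads in MESC and 60 in MEF, a density of 0.0574 (0.0186 to 0.134) and 0.899 (0.686 to 1.16). It was 15.7-fold denser in MEF, with a wide interval of 6.35 to 49.95. Polymerase at the intergenic density of MESC would give 1.90 reads over this body, which lies within the Poisson interval of 1.62 to 11.7 around the 5 reads, so the body reads of Smarcd3 in MESC could not be told from the intergenic level. Smarcd3 passed the minimum of 50 reads through MEF alone, so its large ratio follows in part from that minimum. The third gene of the family, Smarcd2 (BAF60b), held 69 body reads in MESC and 64 in MEF. Of the summed density of the 3 genes, Smarcd1, Smarcd2 and Smarcd3 took 69.0%, 29.2% and 1.83% in MESC and 43.1%, 31.4% and 25.5% in MEF.

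The ARID genes, whose products distinguish canonical BAF from the related PBAF complex, were both read in both libraries. Arid1a (chromosome 4, 133234923 to 133312684, minus strand) encodes BAF250a and Arid1b (chromosome 17, 4994332 to 5347656, plus strand) BAF250b, and a complex holds 1 of them. Arid1a held 3009 body reads in MESC and 1296 in MEF, a density of 4.63 (4.47 to 4.80) and 2.60 (2.46 to 2.75). It was the densest of the 10 genes in both libraries and 1.78-fold denser in MESC (1.67 to 1.90). Arid1b, 352 kb long in its counted part, held 2092 body reads in MESC and 2045 in MEF, a density of 0.694 (0.665 to 0.725) and 0.885 (0.847 to 0.924), and was 1.28-fold denser in MEF (1.20 to 1.36). Arid1a took 87.0% (86.3 to 87.6) of the summed density in MESC and 74.6% (73.3 to 75.9) in MEF. The summed density of the pair was 5.32 in MESC and 3.49 in MEF, a ratio of 1.53 that became 1.24 when read against the median body.

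The remaining genes have no partner among the 10. Actl6a (chromosome 3, 32607468 to 32625890, plus strand) encodes BAF53a, an actin-related subunit of dividing cells. It held 371 body reads in MESC and 180 in MEF, a density of 2.48 (2.24 to 2.75) and 1.57 (1.35 to 1.82), and was 1.58-fold denser in MESC (1.32 to 1.90). Its neuronal counterpart Actl6b, which replaces it when neurons leave the cell cycle, held 3 reads in MESC and 7 in MEF. Smarce1 (chromosome 11, 99070361 to 99092331, minus strand) encodes BAF57, an HMG-box subunit with no paralogue in the complex. It held 377 body reads in MESC and 272 in MEF, a density of 2.10 (1.89 to 2.32) and 1.97 (1.75 to 2.22). Its ratio of 1.06 (0.907 to 1.25) became log2 -0.22 when the median body was set to equality, and it is given no direction.

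**Figure D2:**
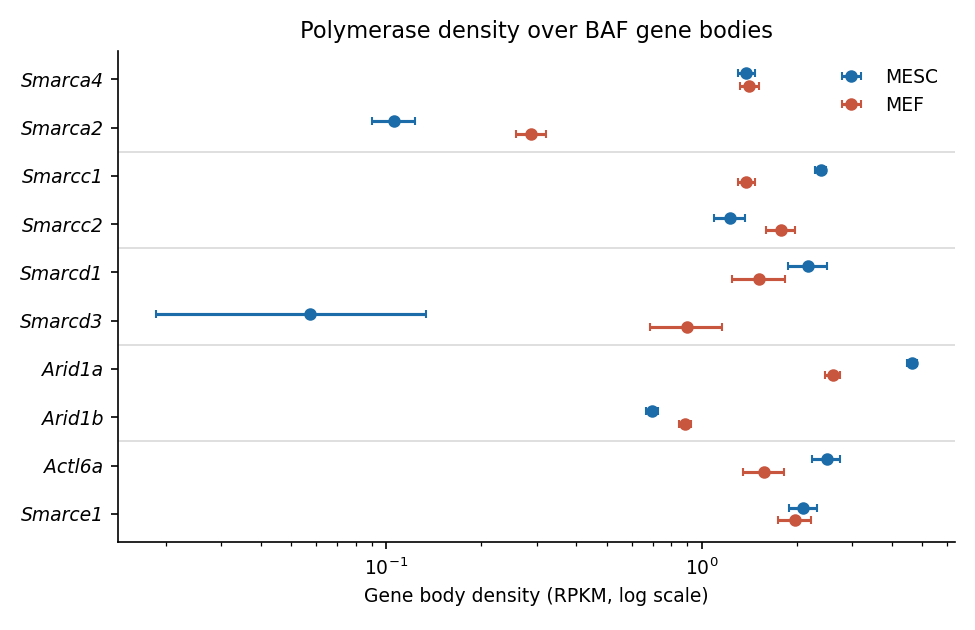
Body density (RPKM, log scale) of the 10 genes in MESC and MEF; bars are exact 95% Poisson intervals, and grey lines part the paralogue pairs from each other and from the unpaired genes. Arid1a is highest in both libraries, and Smarca2 and Smarcd3 lie furthest apart between them.

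Against all genes, 8 members lay within 2-fold and 2 did not. Of the 10 genes 0 were at least 2-fold denser in MESC, where 20.7% of all bodies tested were, and 2 were at least 2-fold denser in MEF, Smarca2 and Smarcd3, where 12.6% of all bodies were. At 4-fold Smarcd3 alone passed, against 5.5% of all bodies toward MEF and 8.0% toward MESC. The median log2 ratio of the 10 genes was 0.03, against 0.30 over all bodies. Read against that median, the intervals of 3 genes lay above it (Smarcc1, Arid1a and Actl6a, 0.36 to 0.53 on the log2 scale) and those of 5 below it (Smarca4, Smarca2, Smarcc2, Smarcd3 and Arid1b, 0.33 to 4.27). The intervals of Smarcd1 and Smarce1 held it. The MESC library held reads of all 6 fibroblast markers, with the summed density of 1.79 given above, and their part in the MESC reads of Smarca2 and Smarcd3 was not tested.

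**Figure D3:**
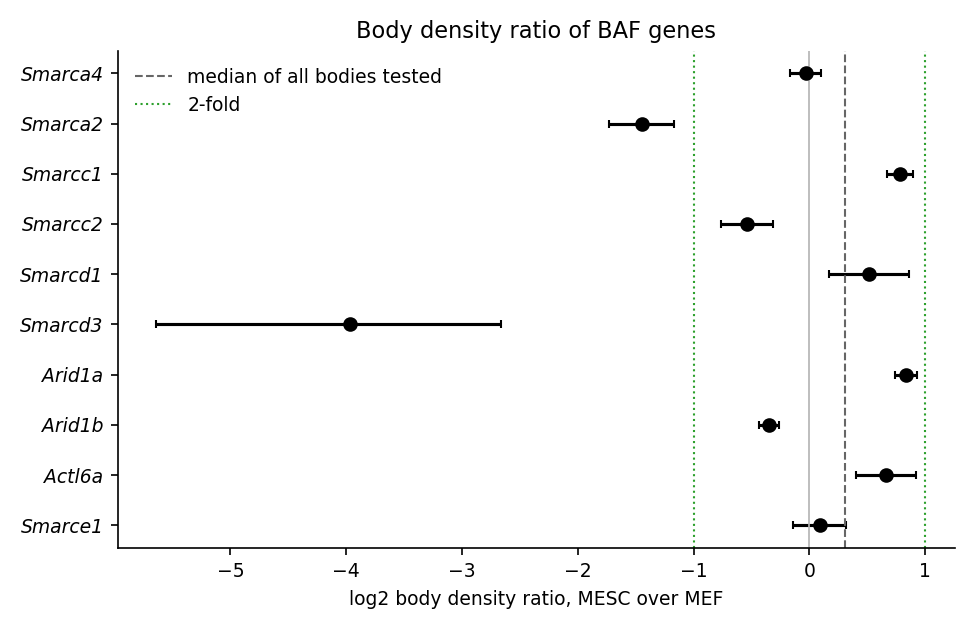
log2 ratio of body density, MESC over MEF, for the 10 genes, with exact 95% intervals of counting error; the dashed line is the median of all 9488 bodies tested and the dotted lines mark 2-fold. Smarca2 and Smarcd3 lie past 2-fold toward MEF, and no gene passes 2-fold toward MESC.

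Of 21 other subunit genes of BAF and PBAF 20 were matched, 3 overlapped another gene, 3 had under 50 body reads in both libraries, and 14 were measured. Of these 1 was at least 2-fold denser in MESC and 1 in MEF, against 20.7% and 12.6% of all bodies, and their median log2 ratio of -0.06 lay below the 0.30 of all bodies. With the median body set to equality, 0 passed toward MESC and 2 toward MEF (Actb and Bcl11b). Among the 14, the largest MESC ratios were those of Arid2, which encodes the ARID subunit of PBAF (2557 and 860 reads, 2.28-fold, 2.11 to 2.46), Brd7, a bromodomain subunit of PBAF (1.29-fold, 1.13 to 1.47), and Bcl11a, a zinc-finger factor (1.14-fold, 0.916 to 1.43). The largest MEF ratios among them were those of Actb, the actin gene whose product also sits in the complex (2.50-fold, 2.22 to 2.81), Bcl11b, the zinc-finger paralogue of Bcl11a (1.62-fold, 1.35 to 1.96), and Ss18l1, which encodes CREST (1.42-fold, 1.07 to 1.88). Of the 3 overlapped subunit genes, Phf10 (1.687-fold) and Ss18 (1.675-fold) lay toward MESC, and the interval of Bcl7a held equality (0.897 to 1.245). Genes of other ATP-dependent remodellers, from the CHD, ISWI, INO80 and other families, lay further toward MESC as a list, but not in each family. Of 22 genes 14 were measured and 8 overlapped another gene. Of the 14, 6 were at least 2-fold denser in MESC and 0 in MEF, against 20.7% and 12.6% of all bodies. The overlapped genes lay in both directions. The widest were Chd3, 3.66-fold denser in MEF (2.93 to 4.60), and Atrx, 1.78-fold denser in MESC (1.63 to 1.95). The median log2 ratio of the 14 was 0.82. The 6 were Chd5, Chd6, Chd7, Chd9, Bptf and Hells. Ino80 and Baz1a had ratios below equality, and the interval of Ino80 held equality while that of Baz1a did not. With the median body set to equality, 3 of the 6 passed (Chd7, Chd9 and Hells). These lists were counted and not tested against each other. Of 5 neuronal markers, which could accompany the neuronal subunits, 2 were measured and 3 overlapped another gene. Both measured genes, Stmn2 and Elavl3, were more than 4-fold denser in MESC. Of the overlapped genes, Rbfox3 lay toward MESC (2.89-fold), the interval of Tubb3 held equality (0.605 to 1.25), and Map2 had a ratio of 0.681. Summed over all 5 the density was 3.01 in MESC, of which Stmn2 gave 1.65, and 1.40 in MEF.

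Reads of the gene bodies came mostly from introns. Leaving out Smarcd3, introns took 71.9% to 96.0% of the body reads of a member in MESC and 72.4% to 97.0% in MEF. With introns alone, the change of the paralogue ratios was log2 1.41 for the ATPases and 1.33 for the Smarcc pair, against 1.42 and 1.32 over whole bodies, and the Arid1 pair moved as little. The introns of Smarcd3 held 1 read in MESC and 35 in MEF, too few to repeat the ratio of its pair.

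The reads were spread over the bodies in different ways. Along Smarca4 the 4 equal stretches of the body, from start to end, held 268, 264, 256 and 244 reads in MESC and 209, 202, 195 and 202 in MEF, an even run. Along Arid1a they fell from 909 to 621 reads between the first and the last stretch in MESC and from 394 to 274 in MEF. RefSeq lists a second Arid1a start 2784 bp after the one used here, inside this first stretch, and its part in these reads was not tested. Arid1b also held fewer reads in the last stretch than in the first, with 645 and 480 reads in MESC and 636 and 452 in MEF. Smarca2 ran the other way, with 16, 15, 32 and 93 reads in MESC and 47, 61, 61 and 157 in MEF. The intergenic density would give 32.2 reads over the whole Smarca2 body in MESC and 18.95 in MEF. With that density subtracted, the ATPase ratio differed 3.155-fold between the libraries instead of 2.669-fold. In Smarce1 the last stretch also held the most reads, 156 of 377 in MESC and 103 of 272 in MEF.

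In MESC a share of the late reads of Smarca2 lay just before a second annotated start inside the gene. The annotation places the start of the short transcripts of Smarca2 at 26822893 on chromosome 19. In the 1000 bp before it, 42 sense reads lay in MESC and 19 in MEF, and in the 2000 bp before it 40 and 46 reads lay on the opposite strand. From -1000 to -501 bp relative to this start, 39 sense and 27 antisense reads lay in MESC, and 13 and 32 in MEF. What gave rise to these reads was not tested. The sense reads there had a ratio of MESC to MEF of 1.70 (0.964 to 3.09), against 0.367 (0.301 to 0.445) for the whole body. A single window of 500 bp at this place held 38 of the 156 body reads in MESC, 24.4% (17.9 to 31.9), and 9 of 326 in MEF, 2.76% (1.27 to 5.18). Without that window Smarca2 lay at log2 -1.81 instead of -1.45, and the ATPase ratio differed 3.41-fold between the libraries instead of 2.67-fold. The position with the most sense reads in that stretch, 26822275, held 5 reads in MESC and 3 in MEF. It lies at -618 bp from the annotated internal start and is shown as the densest position of these few reads, the capital in this sequence of the mm9 plus strand, chr19:26822261-26822289.
Smarca2, before its internal start: cgagaccttccctcAttcagtgaaagatg

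**Figure D4:**
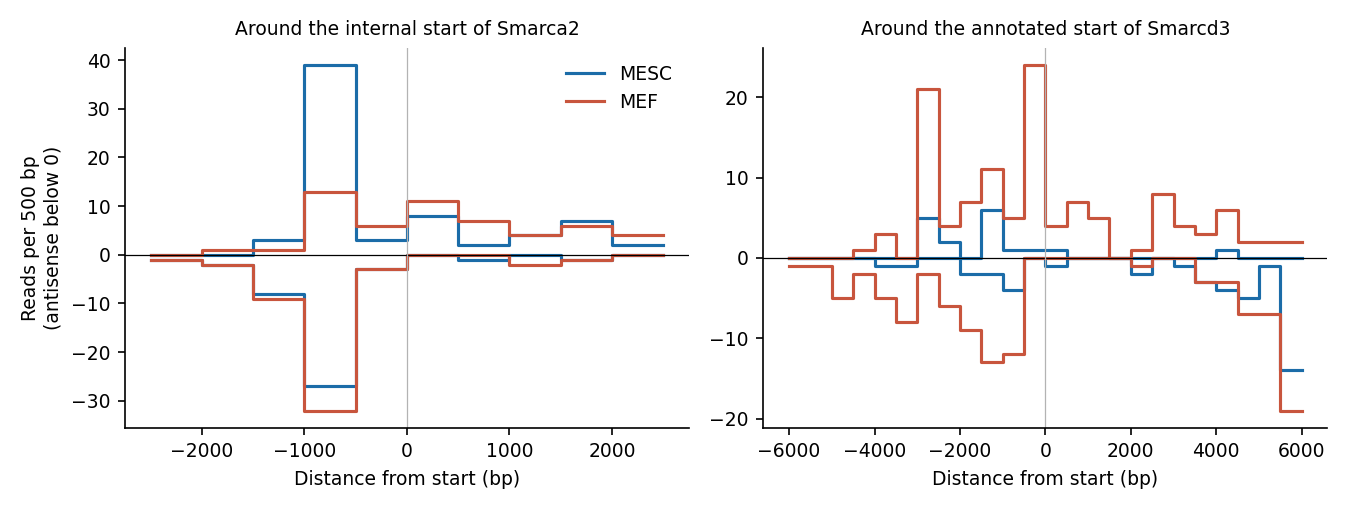
Reads per 500 bp on the sense strand (above 0) and the antisense strand (below 0) around the internal start of Smarca2 and the annotated start of Smarcd3, by distance in bp. At Smarca2 both libraries show sense and antisense reads before the internal start. Before Smarcd3 the MEF reads exceed those of MESC, with 72 against 15 sense reads in 3000 bp.

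Smarcd3 was read from before its annotated start. In the 3000 bp before that start, 72 sense reads lay in MEF and 15 in MESC, and in the 3000 bp before these 4 and 0. On the opposite strand, from -6000 to -1001 bp relative to the start, 52 reads lay in MEF and 6 in MESC. On that strand the body of Smarcd3 is overlapped in part by Chpf2, and its span held 337 opposite-strand reads in MESC and 385 in MEF, which were not counted for Smarcd3. Counted from 3000 bp before the start to the end, Smarcd3 held 21 reads in MESC and 143 in MEF and was 8.88-fold denser in MEF (5.59 to 14.8). This stretch was chosen after its reads were seen, so the larger count is no separate support for the direction. The 15 reads before the start in MESC compare with 0.561 at the intergenic density, so polymerase was detected there in MESC too.

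A window of 351 bp at each annotated start, 50 bp before it and 300 bp after it included, held at least 20 reads in 1 library at 5 of the 10 genes. Smarcc1 held 57 in MESC and 52 in MEF, and the ratio of 0.840 (0.567 to 1.25) held equality. Smarcc2 held 36 and 59, and was 2.14-fold higher in MEF (1.39 to 3.33). Arid1a held 56 and 29, a ratio of 1.48 (0.929 to 2.40), and Actl6a held 21 and 7, a ratio of 2.30 (0.942 to 6.40). Smarce1 held 35 and 22, a ratio of 1.22 (0.696 to 2.18). Among these 5 genes 1 passed 2-fold in each direction, Smarcc2 toward MEF, as 9.4% of all such windows did, and Actl6a toward MESC, as 21.1% did. The interval of Actl6a held equality. With each position counted once neither gene passed 2-fold. Smarcc2 then lay at log2 -0.67, with 30 reads in MESC and 35 in MEF, and Actl6a at 0.83, with 17 and 7. The other 5 genes held at most 10 reads in the window in either library. At 3 of these the reads began further in or before the window: Smarca4 held 35 reads in MESC and 21 in MEF between 250 and 499 bp after the start, Smarcd1 held 26 and 13 between 500 and 749 bp, and Smarcd3 held 1 and 20 from -500 to -251 bp. Smarca2 had 3 and 1 reads in its main promoter window, and Arid1b 3 and 3. The start used for Arid1b lies inside the annotated gene. At this gene 8 reads in each library lay from -250 to -1 bp, partly in the window. Between 500 and 749 bp after the start, 8 reads lay in MESC and 11 in MEF.

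**Figure D5:**
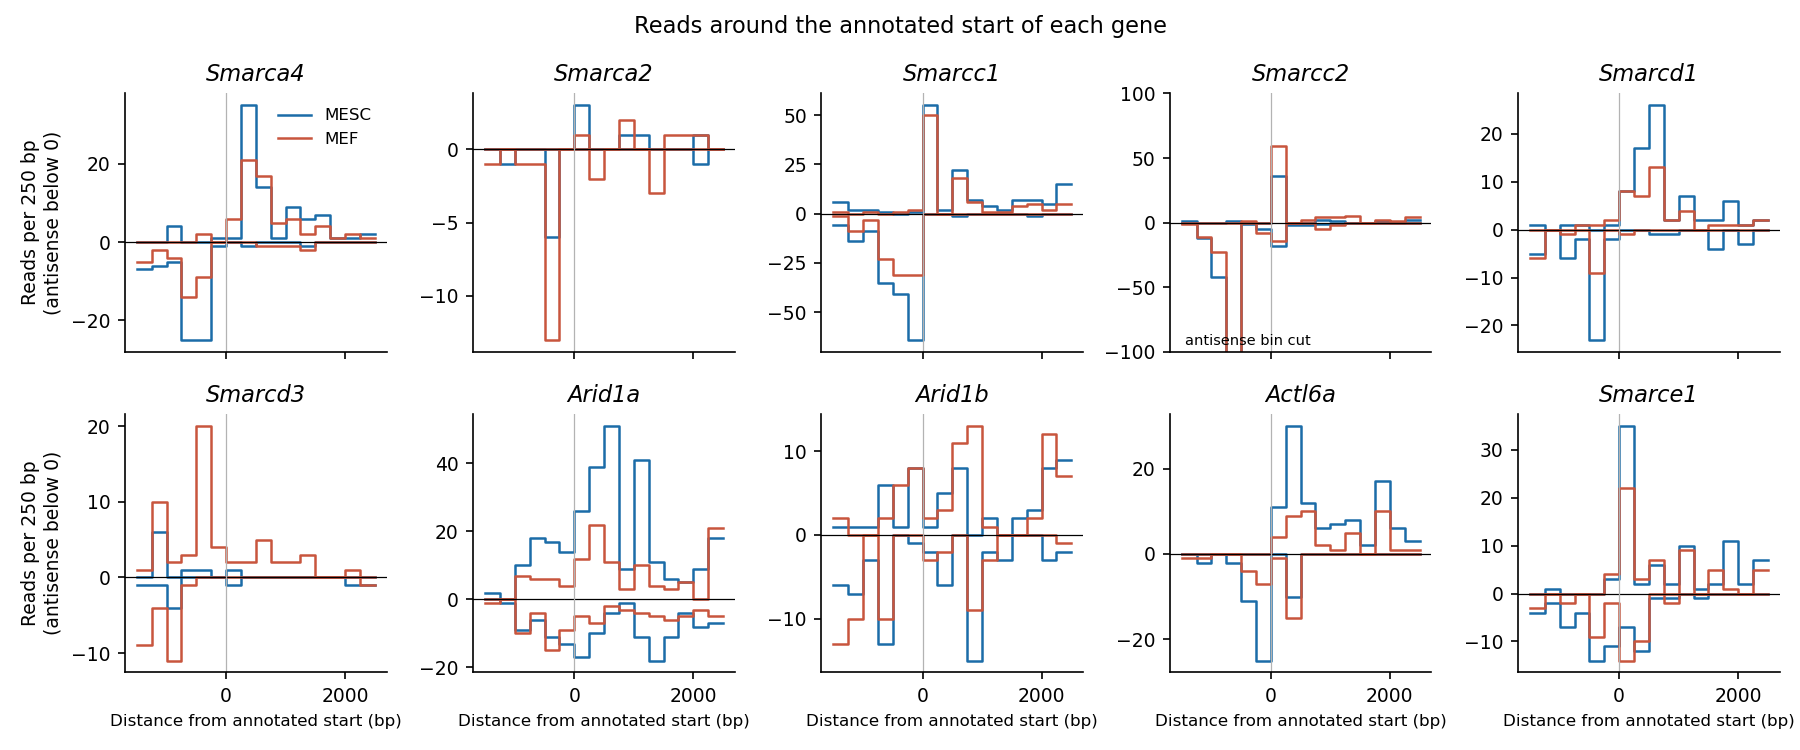
Reads per 250 bp on the sense strand (above 0) and the antisense strand (below 0), from 1500 bp before to 2500 bp after the annotated start of each gene, in MESC and MEF; scales differ between panels, and 1 antisense bin before Smarcc2 runs past its axis, with 453 reads in MESC and 423 in MEF. Sharp sense peaks stand right after the start of Smarcc1, Smarcc2 and Smarce1.

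The pausing index is the density near the start over the density of the body. Most mammalian promoters hold a paused polymerase a short way after the start, which gives an index well above 1. Smarcc1 had an index of 7.96 (6.01 to 10.4) in MESC and 16.3 (12.1 to 21.6) in MEF, a change of 0.488-fold (0.327 to 0.731) in MESC relative to MEF. Near its start the difference was within counting error, while its body was denser in MESC. Smarcc2 had an index of 9.78 (6.73 to 13.8) in MESC and 14.4 (10.7 to 19.0) in MEF, a change of 0.680-fold whose interval, 0.424 to 1.08, held 1. Arid1a had 4.02 (3.03 to 5.24) and 4.83 (3.22 to 6.98), Smarce1 5.55 (3.81 to 7.85) and 4.83 (2.98 to 7.47), and Actl6a 2.81 (1.72 to 4.36) and 1.93 (0.765 to 4.06), with changes whose intervals all held 1. Of the members that were active, with reads above the intergenic level, 6 of 9 in MESC and 6 of 10 in MEF had an index of at least 2, close to the background of 65.4% in MESC and 63.8% in MEF over active genes. Smarca2 counts among the 6 in MESC with 3 promoter reads. At the annotated start holding the most reads, Arid1b passed 2 in both libraries (3.35 in MESC and 2.92 in MEF, over 7 and 6 reads). Smarca2 and Smarcd3 then passed it in MEF too (4.75 and 2.42). With a wider window, from 100 bp before to 500 bp after the start, the index was 4.73 and 9.52 for Smarcc1 and 5.71 and 8.40 for Smarcc2. With each position counted once it was 4.82 and 10.9 for Smarcc1. The median index of active genes in the narrow window was 3.89 in MESC and 3.73 in MEF, and in that window both Smarcc genes lay above it in both libraries.

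Upstream antisense reads, which mark divergent initiation, were counted over the 500 bp before the start. Among the active members with no other start nearby in the annotation used, 7 of 8 in MESC and 7 of 9 in MEF had at least 3. Of all such genes 60.6% had as many in MESC and 49.6% in MEF. Smarcc2, with 6 and 8 reads, counts among the 7, although RefSeq lists a tRNA gene before its start. Smarcc1 had the most, 105 in MESC and 62 in MEF, more than its own 57 and 52 sense reads. Actl6a had 36 and 11, Smarca4 26 and 9, Smarce1 25 and 11, and Arid1a 24 in each library. Smarca2 had 6 and 13, so its main promoter gave more antisense than sense reads in both. Smarcd1 had 25 and 9, but the start of another gene, Gm17349, lies within 2000 bp of its own, so these reads may belong to that gene. Arid1b had 1 and 0, and Smarcd3 had none in this window. The start used for Arid1b, at 4995074, lies inside the annotated gene, which begins at 4994332. Beyond the window, from -750 to -501 bp relative to that start, 13 antisense reads lay in MESC and 10 in MEF. The low count of Arid1b therefore depends on the start used.

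The promoters of the pairs with a measured tilt in ATPase and scaffold are shown for comparison, from 250 bases before to 50 after the RefSeq start. They are RefSeq sequences of build GRCm38.p6, and each was found letter for letter in mm9 at the position given. Capitals mark matches on either strand to the motifs TATAAA (the TATA box), GGGCGG (the GC box), CCGGAAG (a core bound by ETS factors), ATGGCG (a core bound by YY1) and CCAAT (the CCAAT box). The number of bases shared by overlapping matches was 0 in each of these promoters.
Smarca4, chr9:21420363-21420662, plus strand: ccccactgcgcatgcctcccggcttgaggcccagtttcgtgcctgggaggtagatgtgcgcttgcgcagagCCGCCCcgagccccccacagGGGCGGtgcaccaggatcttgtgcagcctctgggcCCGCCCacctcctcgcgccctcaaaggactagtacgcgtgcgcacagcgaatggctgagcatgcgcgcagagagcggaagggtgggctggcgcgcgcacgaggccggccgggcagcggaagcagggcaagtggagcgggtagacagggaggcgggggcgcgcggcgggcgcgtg
Smarca2, chr19:26679400-26679699, plus strand: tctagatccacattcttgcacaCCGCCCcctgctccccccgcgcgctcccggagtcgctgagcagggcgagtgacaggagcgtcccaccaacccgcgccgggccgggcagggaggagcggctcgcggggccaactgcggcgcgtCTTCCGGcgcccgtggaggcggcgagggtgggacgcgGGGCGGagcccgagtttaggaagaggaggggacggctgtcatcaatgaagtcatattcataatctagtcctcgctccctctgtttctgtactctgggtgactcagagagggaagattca
Smarcc1, chr9:110034278-110034577, plus strand: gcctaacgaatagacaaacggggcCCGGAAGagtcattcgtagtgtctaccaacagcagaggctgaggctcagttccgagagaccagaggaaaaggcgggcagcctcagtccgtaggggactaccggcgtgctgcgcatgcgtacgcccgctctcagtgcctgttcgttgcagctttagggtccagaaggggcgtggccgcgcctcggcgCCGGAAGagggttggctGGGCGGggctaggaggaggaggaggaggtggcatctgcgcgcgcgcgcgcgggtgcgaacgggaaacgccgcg
Smarcc2, chr10:127896042-127896341, plus strand: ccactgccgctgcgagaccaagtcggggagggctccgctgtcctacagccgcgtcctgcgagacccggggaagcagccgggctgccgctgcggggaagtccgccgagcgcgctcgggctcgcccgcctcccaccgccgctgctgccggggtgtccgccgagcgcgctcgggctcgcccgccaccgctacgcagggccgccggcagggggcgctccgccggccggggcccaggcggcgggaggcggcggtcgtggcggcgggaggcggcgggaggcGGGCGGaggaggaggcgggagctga

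The promoters of the 9 members listed by RefSeq, 10 starts in all, were rich in CpG. They held 21 to 48 CpG dinucleotides in 300 bases, against a median of 7.0 over all 32851 promoters of the table. The GC box was present in all 9 genes and in 35.7% of all promoters. TATAAA was in 0 of the 9 and in 13.6% of all promoters, and CCAAT was in 0 of the 9 and in 37.4% of all. The ETS core was present at Smarca2 and Smarcc1 (8.86% of all promoters) and the YY1 core at Smarcd1 (8.93%). A match is a description of these letters and shows no binding.

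The positions where most sense reads began in the promoter windows are shown for the 5 genes with at least 20 reads in the window in 1 library. The run-on RNA had been cut by base hydrolysis, so a position marks an RNA end and not the site of the polymerase itself. The capital marks the position, and sequences are from the mm9 genome, 5′ to 3′ on the sense strand. The reads at each position were few: 5 in MESC and 11 in MEF at Smarcc1, 1 and 4 at Smarcc2, 5 and 1 at Arid1a, 3 and 0 at Actl6a, and 3 and 5 at Smarce1. They lie 48, 100, 275, 263 and 94 bp after the annotated starts, in that order.
Smarcc1, chr9:110034575-110034603, plus strand: gcgagggccaggctAggccgggcggtaga
Smarcc2, chr10:127896378-127896406, plus strand: agaagatggcggtgCggaagaaggacggc
Arid1a, chr4:133312395-133312423, minus strand: agcagtcttaggttAatgttgtagatctt
Actl6a, chr3:32607717-32607745, plus strand: agtcacgccgctgtTatctttcgtccggt
Smarce1, chr11:99092223-99092251, minus strand: tcttctccattcatAcgtccatcagcgga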

How the data were processed

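Run-on RNA had been sequenced from 3 MESC and 2 MEF samples. Per the series design text, Eland placed the reads on mm9, and those in rRNA-like repeats were taken out. Yet dense loci similar to ribosomal DNA still held 11.5% of the MESC reads and 16.4% of the MEF reads. These reads stayed in the totals used for density. Without them the median of all bodies was log2 0.22 toward MESC instead of 0.30. Per the file headers, the authors pooled the libraries of each cell type. The deposited files hold 1 line per read with the value 1, so the values are raw counts. For Eland's version and for duplicate or multiply placed reads, nothing was stated. The test planned for separable samples could not be made.

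Gene models, 1 per gene, were the longest transcripts of the GENCODE annotation of NCBIM37 (mm9). Of every 400th read, 92.6% to 95.8% per library and strand matched that genome when up to 2 mismatches were allowed and the listed position was taken as the 5′ end, counted from 1. Calls required 50 body or 20 promoter reads in 1 library and a 2-fold ratio, and counts under 3 were set to 3. Active genes had 20 promoter reads, or a body whose Poisson interval exceeded the intergenic level found more than 10 kb from genes. Intervals are Clopper-Pearson or conditional odds-ratio intervals (scipy 1.17.1). TMM factors came from edgeR 4.0.16. The intervals and calls were checked on simulated data. These were independent Poisson counts, so the check covers neither duplicate reads nor spread between samples. Members and lists were chosen with earlier results of these data known. The text names all 10 members and, of the other subunits, the 3 with the largest measured ratio in each direction and the 3 that overlapped another gene.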

Additional observations from a re-analysis of the deposited data

Results flagged for a closer look

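A signal outside the windows of the members lay before Smarcc2. On the strand opposite to Smarcc2, from -772 to -691 bp relative to its start, 429 reads lay in MESC and 415 in MEF, more than the 314 and 350 reads of the whole Smarcc2 body, with 0 reads on the other strand in either library. The RefSeq table (GRCm38.p6) lists the tRNA gene n-TScga2 at this distance, so these reads are outside the counts of Smarcc2. The ratio of MESC to MEF was 0.793 (0.691 to 0.909). The position with most reads, 127895581 on chromosome 10 of mm9, held 95 in MESC and 133 in MEF and is the capital in the sequence chr10:127895567-127895595, minus strand.
Before Smarcc2: gtggccgagtggttAaggcgttggactcg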

How the results depend on the processing

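The change of each paralogue ratio kept its direction under every alternative run, between 2.40-fold and 3.59-fold for Smarca4 over Smarca2, 2.11 and 2.91 for Smarcc1 over Smarcc2, 11.8 and 35.4 for Smarcd1 over Smarcd3 (at 11.8, 2 MESC reads of Smarcd3 were set to 3), and 2.21 and 2.35 for Arid1a over Arid1b. It left its interval for the ATPases only, at log2 1.84 with the start holding the most reads and 1.77 without the densest 500-bp window. Of the members 1 instead of 2 was 2-fold denser in MEF with bodies from 3000 bp, with the start holding the most reads, and at 4-fold, where Smarcd3 fell under the minimum of reads in the first 2 cases and Smarca2 missed 4-fold in the last. Over all bodies 910 were 2-fold denser in MESC and 668 in MEF at a minimum of 200 reads, and 3464 and 2173 with no minimum, against 1968 and 1197. Leaving out the densest window, subtracting the intergenic density, extending Smarcd3 and scaling the lists by the median body were chosen after seeing the data. The 35-base and 36-base reads of MESC gave member densities that differed by log2 -0.20 to 0.26, which is a technical check and no replicate. No paired analysis was possible because the reads carry no sample names, and no replicate could be left out for the same reason. Depth limits Smarcd3 in MESC. The promoter windows of 5 genes held few reads, and at 3 of these genes the reads began further in or before the window.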

Other observations

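The bodies of Smarcc2 and Actl6a also held dense stretches that the report has not described. In Smarcc2 the window from 14500 to 14999 bp after the start held 60 sense reads in MESC, 19.1% (14.9 to 23.9) of its body reads, and 31 in MEF, 8.86% (6.10 to 12.3). Only 2 and 0 reads lay on the opposite strand there, unlike at the internal start of Smarca2. In Actl6a the window from 11000 to 11499 bp held 43 reads in MESC and 18 in MEF, 11.6% and 10.0% of the body, with 0 on the opposite strand in both. Without these windows Smarcc2 lay at log2 -0.71 and Actl6a at 0.63, against -0.54 and 0.66.

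The index of Smarca4 depended on the window. From 50 bp before to 300 bp after the start it was 0.481 (0.0581 to 1.74) in MESC and 2.76 (1.26 to 5.27) in MEF, over 2 and 9 reads. From 100 bp before to 500 bp after, it was 5.05 (3.52 to 7.04) in MESC and 4.84 (3.17 to 7.10) in MEF, over 36 and 27 reads.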
